A study of Mus musculus with 8 samples.

Results

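The 10 genes described here, signaling effectors named as striatum-enriched, were taken by name from the count table of an RNA-seq experiment on mice lacking Bcl11b in striatal neurons: Arpp21, Arpp19, Ddit4l, Rasd2, Strip2, Ankrd63, Tmem158, Dclk3, Actn2 and Ngef. All libraries were of striatum, so enrichment over other brain regions was not measured, and Arpp19 is known to be expressed widely. All 10 were found among the 55376 features of the table, and all 10 passed the filter on low counts that left 22173 genes for testing. Total RNA, depleted of ribosomal RNA, came from the striatum of the left hemisphere of 4 deletion and 4 control mice, with 1 library per mouse. All 8 mice were labelled as female, 4 months old and of the strain C57Bl/129S2/Sv. The deletion mice carried the floxed Bcl11b allele (D9_Cre_Bcl11b_tm1.1_Lead in the labels, D9-Cre-Bcl11b tm1.1 Leid in the study's methods) with a Cre transgene under a regulatory element of Ppp1r1b, the DARPP-32 gene, which directs the deletion to medium spiny neurons (MSNs) after birth. The control mice carried the same floxed allele without Cre, so no group was wild type, and mice with Cre alone were not analysed here. The comparison asks how loss of the transcription factor BCL11B in adult MSNs changes the RNA level of these genes.

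MSNs are the GABAergic projection neurons that make up most of the striatum. Dopamine raises or lowers cAMP in them through D1 and D2 receptors, protein kinase A then phosphorylates small cytosolic proteins such as DARPP-32, ARPP-21 and ARPP-19, and these proteins in turn steer phosphatases and calmodulin. The other genes act further along or beside this route: on mTORC1 (Ddit4l), on small G proteins (Rasd2, Ngef), on a phosphatase and kinase complex (Strip2), as a kinase (Dclk3) or at the actin cytoskeleton of dendritic spines (Actn2).

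Of the 10 genes, 5 were lower in deletion mice (Arpp21, Ddit4l, Rasd2, Actn2 and Ngef), 1 was higher (Strip2), and 4 did not pass the test (Arpp19, Ankrd63, Tmem158 and Dclk3). A gene was called at an adjusted p under 0.01 by edgeR's quasi-likelihood test with Benjamini-Hochberg adjustment over the 22173 genes. The same rule called 3.91% of all tested genes lower and 4.87% higher. The values of the 2 groups did not overlap for 7 of the 10 genes, 6 lower and 1 higher, against 22.0% of all tested genes (10.3% lower and 11.7% higher). DESeq2 called 6 of the 10 lower and 1 higher, and 6.30% and 7.01% of all genes it tested. The median log2 fold change of the 10 genes was -0.29, and that of all tested genes was -0.00. In bulk tissue, fewer cells of a type and less RNA per cell cannot be told apart.

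**Figure D1:**
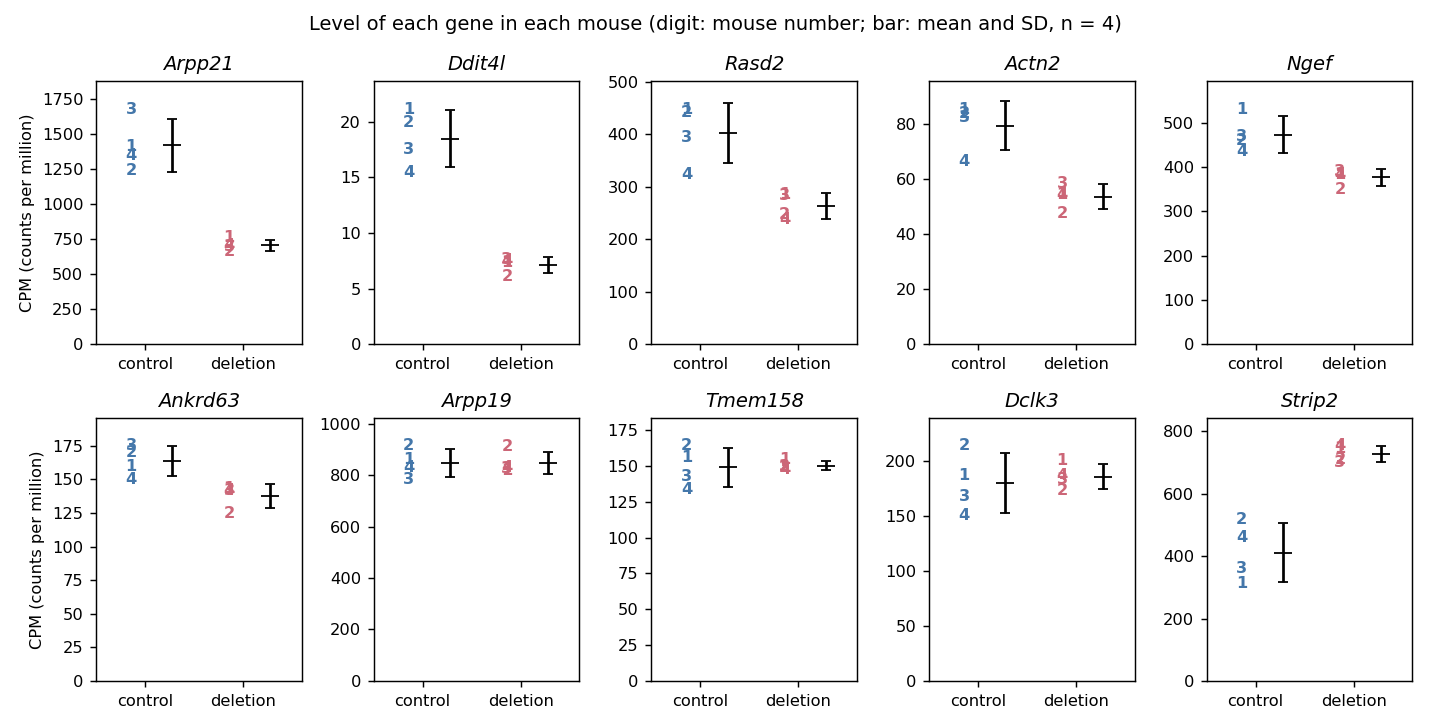
Level of each of the 10 genes in each mouse, in CPM (counts scaled to library size) on an axis that starts at 0; digits are the mouse numbers of the control (blue) and deletion (red) groups, and bars are the mean and SD of 4 mice. The groups do not overlap for Arpp21, Ddit4l, Rasd2, Actn2, Ngef and Ankrd63, all lower in deletion mice, nor for Strip2, which is higher in every deletion mouse.

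Bcl11b itself was at 477, 368, 446 and 281 CPM in control mice 1 to 4 and at 145, 141, 151 and 145 CPM in deletion mice 1 to 4. CPM is the count divided by the library size after TMM scaling, multiplied by 1e6. Every deletion mouse was below every control mouse, and the deletion mice lay close together while control 4 had the lowest control value. The total counts were 47059264 to 50213377 for the control group and 51536311 to 70247098 for the deletion group. Markers of the cell types in the dissected tissue were detected in all mice, with 0 of them at 0. The 12 MSN markers summed to between 6624 and 7518 CPM in control mice and between 5668 and 6233 in deletion mice. Of the 12, 5 were called lower and 0 higher by edgeR, against 3.91% and 4.87% of all tested genes. DESeq2 called 7 lower and 1 higher (Tac1), against 6.30% and 7.01% of all genes it tested. The markers did not all fall: the log2 fold change by edgeR was 0.47 for Tac1, with overlapping groups, and 0.10 for both Pdyn and Isl1. The 10 markers of cortical excitatory neurons summed to between 97.0 and 254 CPM in control mice and between 112 and 289 in deletion mice, with the highest sums in control 4 and deletion 4. The 8 markers of ependymal cells and choroid plexus summed to between 75.5 and 1732 CPM in control mice and between 102 and 9793 in deletion mice, with the highest sum in deletion 2. Those of the 10 genes that were called are given below also without control 4 or deletion 2, as are some genes that such a mouse moved.

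Arpp21 (chr9:112065091-112235938, minus strand, GRCm38) carried the largest change in CPM. Its short protein, ARPP-21, is a substrate of protein kinase A that binds calmodulin, its long protein binds RNA through an R3H domain, and gene counts do not separate them. Control mice 1 to 4 had 1412, 1238, 1678 and 1349 CPM, and deletion mice 1 to 4 had 759, 664, 701 and 704 CPM. Each deletion mouse was well below the lowest control mouse, and the spread within the deletion group was narrow. On the log2 scale the change was -1.0 (SE 0.09, adjusted p = 5.88e-05, edgeR), and the mean fell by 712 CPM. Only 2.09% of tested genes had a lower fold change. Without control 4 the log2 fold change of Arpp21 was -1.02, and without deletion 2 it was -0.97.

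An intron of Arpp21 holds Mir128-2 on the same strand, and an intron of its relative R3hdm1 holds Mir128-1. Both hairpins give the same mature microRNA, shown because it is made from the introns of this gene pair, with the seed (bases 2 to 8) in capitals, from RefSeq (GRCm38.p6).
miR-128-3p: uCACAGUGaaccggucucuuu
The counts of the hairpins do not measure the mature microRNA, which is shorter than the fragments of these libraries. Mir128-2 had 4, 5, 2 and 4 counts in control mice and 15, 5, 7 and 12 in deletion mice, too few to be tested, and its values did not fall with those of Arpp21. Mir128-1 had 22 to 34 counts in the 8 mice, at -0.37 on the log2 scale with overlapping groups.

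The RefSeq table held 9 start site windows for Arpp21, each from 250 bases before to 50 bases after a start. They were searched on both strands for TGACCA, the motif known for BCL11A, the closest relative of BCL11B, and for TGACGT, the core of the cAMP response element. Windows of 3 of the 9 starts held TGACCA, 2 of them overlapping on the same bases, and 0 held TGACGT. Of all 32851 windows in the table, 13.6% held TGACCA and 7.51% held TGACGT. The window below is shown as the first of those 3, with the match in capitals. It reads TGGTCA there, the reverse complement, at position -103 from the start. That start lay 18587 bases from the start of the gene in the annotation used for coordinates, GENCODE M21.
Arpp21 (chr9:112217302-112217601, minus strand, GRCm38.p6): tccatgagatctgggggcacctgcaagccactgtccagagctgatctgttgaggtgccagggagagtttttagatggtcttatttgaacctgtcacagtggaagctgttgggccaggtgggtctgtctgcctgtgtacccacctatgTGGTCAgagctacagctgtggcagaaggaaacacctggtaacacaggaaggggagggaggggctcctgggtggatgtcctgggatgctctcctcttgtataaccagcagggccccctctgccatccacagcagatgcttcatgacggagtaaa
A match is a description of the letters and shows no binding.

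Arpp19 (chr9:75037614-75060313, plus strand) encodes the other cAMP-regulated phosphoprotein among the 10 genes, which inhibits the phosphatase PP2A with a B55 subunit once the kinase MASTL has phosphorylated it. Control mice had 862, 913, 781 and 831 CPM, and deletion mice had 820, 911, 826 and 829 CPM. The ranges lay on each other, and the highest mouse of each group was mouse 2. The log2 fold change was -0.00 with a 95% interval from -0.15 to 0.14 (adjusted p = 0.996, edgeR), so a change larger than these bounds was not within the interval. The interval of Arpp21, drawn in the plot of fold changes, lay far below that of Arpp19.

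Ddit4l (chr3:137621612-137628333, plus strand) had the lowest fold change of the 10 genes. It encodes REDD2, a stress-induced inhibitor of mTORC1, the kinase complex that drives protein synthesis. Its window is shown because it holds the motif TGACCA more than once (capitals, together with the GC box GGGCGG on either strand).
Ddit4l (chr3:137623422-137623721, plus strand, GRCm38.p6): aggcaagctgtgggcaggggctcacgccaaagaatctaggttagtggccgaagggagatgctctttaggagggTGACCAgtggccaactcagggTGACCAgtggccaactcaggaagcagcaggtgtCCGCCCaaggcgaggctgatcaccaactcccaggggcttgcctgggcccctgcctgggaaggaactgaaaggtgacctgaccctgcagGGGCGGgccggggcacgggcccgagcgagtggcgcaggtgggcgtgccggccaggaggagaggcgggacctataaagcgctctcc
The matches began 177 and 156 bases before the RefSeq start, and both sat in a directly repeated stretch of 21 bases. Of all windows, 1.22% held TGACCA at least 2 times. The RefSeq start lay 2060 bases from the start of the gene in the annotation used for coordinates, GENCODE M21.

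Control mice 1 to 4 had 21.1, 19.9, 17.5 and 15.5 CPM of Ddit4l, and deletion mice 1 to 4 had 7.37, 6.07, 7.62 and 7.52 CPM. The lowest control mouse was still far above the highest deletion mouse. Ddit4l changed by a log2 fold change of -1.37 (SE 0.12, adjusted p = 4.15e-05, edgeR), with 0.979% of tested genes lower still. It was -1.44 without control 4, the lowest control mouse, and -1.30 without deletion 2, the lowest deletion mouse.

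Rasd2 (chr8:75213944-75224113, plus strand) encodes RHES, a small G protein of the Ras family that is concentrated in the striatum and promotes attachment of SUMO to other proteins. Control mice had 448, 442, 395 and 324 CPM, and deletion mice had 286, 248, 283 and 238 CPM. The groups did not overlap, although control 4 came close to the highest deletion mouse. Rasd2 had a fitted log2 fold change of -0.61 (SE 0.10, adjusted p = 0.00242, edgeR), -0.69 without control 4 and -0.58 without deletion 2. No motif of the 3 searched was found in its RefSeq window.

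Actn2 (chr13:12269426-12340760, minus strand), which encodes the actin crosslinker actinin-2 of muscle and dendritic spines, had 85.2, 83.7, 82.0 and 66.2 CPM in control mice and 54.4, 47.5, 58.2 and 54.1 CPM in deletion mice. Control 4 was well below controls 1 to 3 but remained above every deletion mouse. Its fitted log2 fold change was -0.57 (SE 0.09, adjusted p = 0.00145, edgeR), -0.64 without control 4 and -0.51 without deletion 2. Ngef (chr1:87476834-87573870, minus strand) encodes ephexin-1, an exchange factor for small G proteins that acts below EphA receptors. It had 531, 460.1, 469 and 435 CPM in control mice and 382, 349, 391 and 384 CPM in deletion mice. The groups did not overlap, and the change was the smallest of the called ones. The log2 fold change of Ngef was -0.33 (SE 0.07, adjusted p = 0.00693, edgeR), and its call was lost in 7 of 8 fits that left out 1 mouse, with adjusted p up to 0.0206. It was -0.36 without control 4, the fit in which the call held, and -0.29 without deletion 2.

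Ankrd63 (chr2:118699103-118703963, minus strand), a gene of a single exon for a protein with ankyrin repeats, had 159, 170.2, 175 and 149.7 CPM in control mice and 143, 124, 142 and 142 CPM in deletion mice. The groups lay next to each other without overlap, and deletion 2 stood below the rest. The log2 fold change was -0.25 (95% interval -0.39 to -0.11), with an adjusted p of 0.0218 by edgeR and 0.00606 by DESeq2. Without control 4 it was -0.28 and passed the threshold (adjusted p = 0.0087, edgeR), and without deletion 2 it was -0.20 and did not (adjusted p = 0.0452, edgeR). Tmem158 (chr9:123259053-123260764, minus strand), also of a single exon and known from human cells as a membrane protein induced by Ras, ranged from 134 to 164 CPM in control mice and from 147 to 155 CPM in deletion mice. Dclk3 (chr9:111439081-111489118, plus strand), a kinase of the doublecortin family, ranged from 150.4 to 214 CPM in control mice and from 173 to 200.2 CPM in deletion mice. In both genes the deletion range lay inside the control range. The 95% intervals of their log2 fold changes were -0.13 to 0.15 for Tmem158 and -0.16 to 0.26 for Dclk3, with adjusted p of 0.929 and 0.791 by edgeR.

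Strip2 (chr6:29917012-29959681, plus strand) was the only one of the 10 genes that was called higher. It encodes a scaffold subunit of STRIPAK, a complex that joins PP2A to kinases of the GCKIII family. Control mice 1 to 4 had 311, 516, 359 and 459.8 CPM, and deletion mice 1 to 4 had 743, 709.97, 701 and 753 CPM. The control mice were widely spread and the deletion mice were not, and the groups did not overlap. A log2 fold change of 0.82 (SE 0.13, adjusted p = 0.00198, edgeR) went with a mean gain of 315 CPM, and 3.91% of tested genes had a higher fold change. It was 0.89 without control 4 and 0.83 without deletion 2. Over all 8 fits that left out 1 mouse, the log2 fold change of Strip2 ran from 0.71 (without control 1) to 0.95 (without control 2). Its window is printed as that of the only gene that rose, with GGGCGG in capitals 91 and 48 bases before the start. TGACCA and TGACGT had 0 matches in it.
Strip2 (chr6:29916763-29917062, plus strand, GRCm38.p6): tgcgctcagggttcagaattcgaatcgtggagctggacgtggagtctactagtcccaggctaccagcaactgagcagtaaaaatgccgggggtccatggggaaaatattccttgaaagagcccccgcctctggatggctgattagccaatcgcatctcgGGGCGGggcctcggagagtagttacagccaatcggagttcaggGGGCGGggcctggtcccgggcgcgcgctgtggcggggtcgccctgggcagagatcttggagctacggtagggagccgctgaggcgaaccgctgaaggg
At least 2 GC boxes were found in 19.5% of all windows. Of the 8 genes with a window, 2 held TGACCA (Arpp21 and Ddit4l, both called lower), 0 held TGACGT and 6 held a GC box. Rasd2, Actn2 and Ngef, also called lower, held no TGACCA. Arpp21 had 9 windows, so its count by gene cannot be set against the share of single windows. A GC box was found in 35.7% of all windows.

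**Figure D2:**
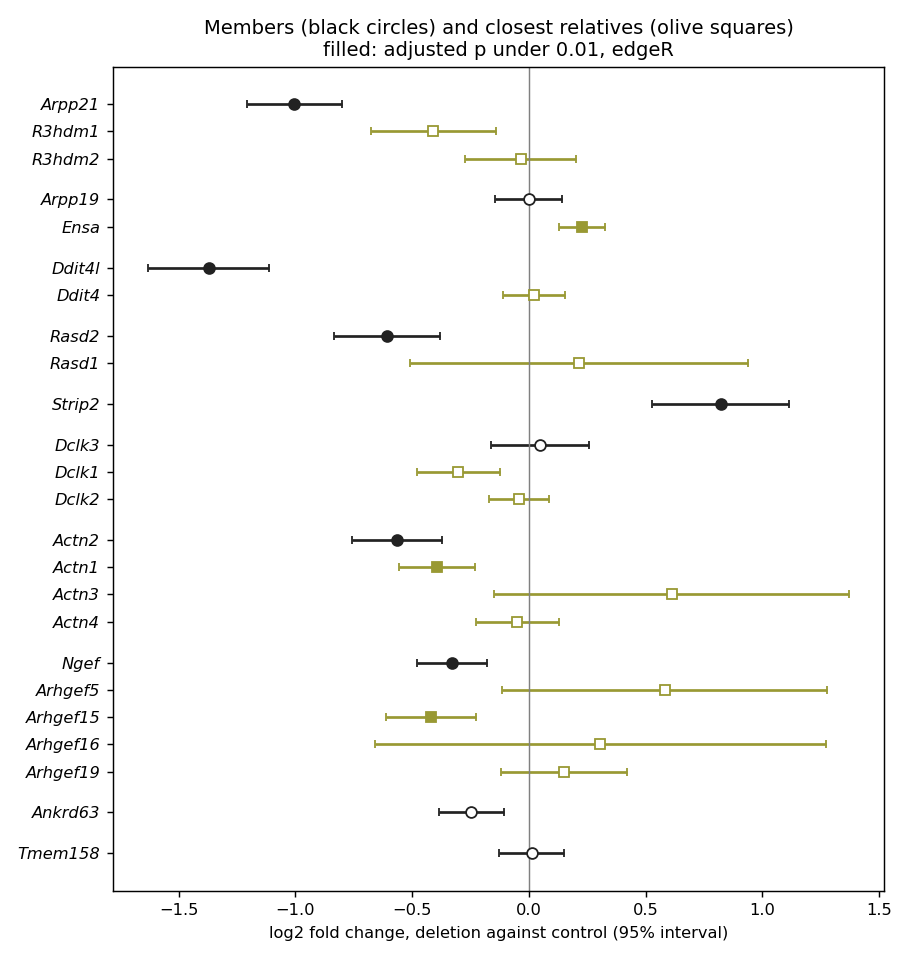
Log2 fold change of deletion against control mice with its 95% interval for the 10 genes (black circles) and their closest relatives (olive squares), with filled symbols at an adjusted p under 0.01 by edgeR. Arpp21, at -1.0, and Ddit4l, at -1.37, lie below their relatives, R3hdm1 at -0.41 and R3hdm2 at -0.04 for the former and Ddit4 at 0.02 for the latter, and the interval of Strip2 lies above 0.

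The genes also differed in which mouse was extreme, as the map of deviations shows. Among control mice, control 4 was the lowest for 7 of the 10 genes and the highest for 0 of them, and it was the lowest control for Bcl11b as well. Among deletion mice, deletion 2 was the lowest for 6 of the 10. Control 4 also had the highest sum of cortical neuron markers among controls, and deletion 2 the highest sum of ependymal and choroid plexus markers. Deletion 4, whose cortical sum was the highest of all mice, was the lowest deletion mouse for 2 of the 10 genes. The part of these marker sums in the values was not tested. Without control 4 the number of genes called lower was 6 instead of 5, with Ankrd63 as the added one. Without deletion 2 it was 4, with Ngef lost at an adjusted p of 0.0162 by edgeR. Strip2 went against this order: its lowest control mouse was control 1, which had the highest values of Bcl11b, Ddit4l, Rasd2, Actn2 and Ngef.

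**Figure D3:**
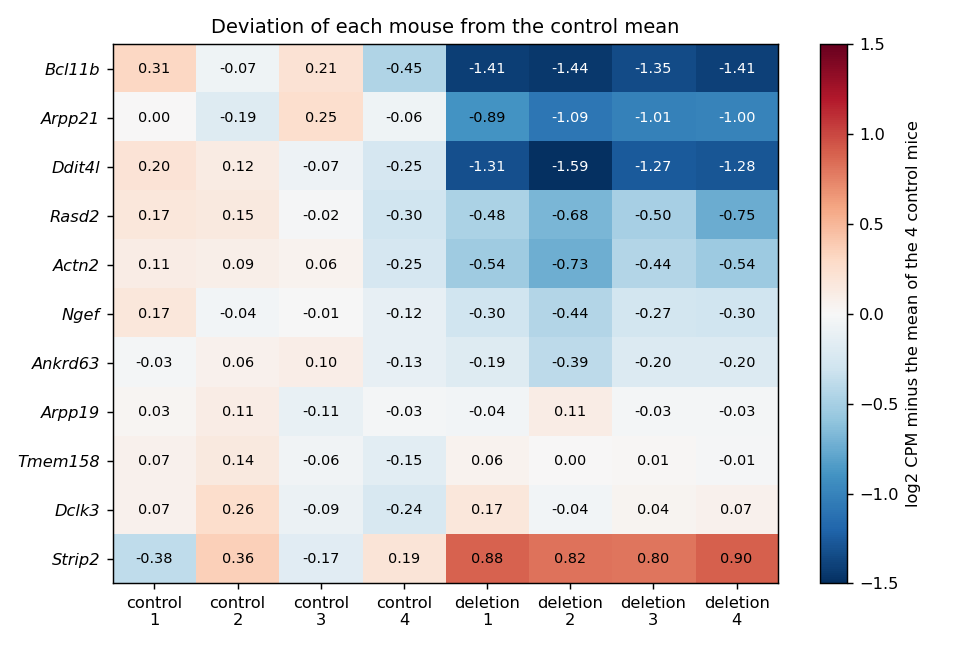
Log2 CPM of each gene in each mouse minus the mean of the 4 control mice, with Bcl11b in the top row; blue is lower and red is higher. Control 4 is at -0.30 for Rasd2 and -0.25 for Actn2 and Ddit4l, and all deletion mice are at -0.89 or lower for Arpp21 and at 0.80 or higher for Strip2.

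The spread between mice was smaller in the deletion group for all 10 genes. The median coefficient of variation of the 10 genes was 12.2% in control and 5.78% in deletion mice. Over all tested genes, 60.1% had the smaller coefficient in the deletion group, with medians of 13.5% and 11.2%. For Strip2 the SD was 93.3 CPM around a mean of 411 in control mice and 25.3 CPM around 727 in deletion mice. The summed level of the 10 genes was between 3913 and 4266 CPM in control mice and between 3382 and 3550 CPM in deletion mice, so the gain of Strip2 was smaller than the losses of the others.

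Because the deletion is directed to MSNs, each gene was also set against the mean log2 CPM of the 12 MSN markers of the same mouse, as a description. That mean was itself lower in deletion mice, at 8.05 to 8.25 against 8.27 to 8.49 in control mice. A gene that did not change therefore comes out higher on this scale. The share of all genes that separate on it was not computed. On that scale Arpp21 differed by -0.78 and Ddit4l by -1.14 between deletion and control means, without overlap. Rasd2, with a difference of -0.38, and Actn2, with -0.34, were also lower without overlap. Ngef, with -0.11, and Ankrd63, with -0.03, overlapped between the groups. Arpp19 (0.22), Tmem158 (0.24), Dclk3 (0.28) and Strip2 (1.07) were higher relative to the markers, each without overlap. With Ppp1r1b, the gene of DARPP-32, as the only reference, Arpp21 was at -0.49 and Ddit4l at -0.85, still without overlap. Rasd2 (-0.09) and Actn2 (-0.05) then overlapped, whereas Ngef (0.18) and Ankrd63 (0.27) turned higher. Ppp1r1b itself had a log2 fold change of -0.51, lower than those of Ngef and Ankrd63.

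**Figure D4:**
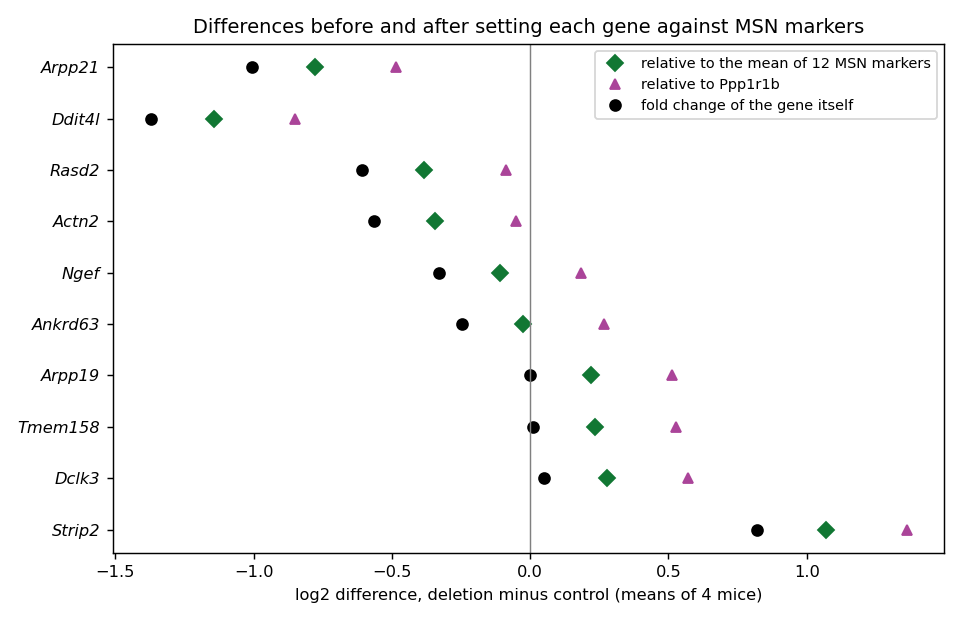
Log2 difference between deletion and control means (n = 4 mice each) for each gene alone (circles), relative to the mean of 12 MSN markers (diamonds) and relative to Ppp1r1b (triangles). Arpp21 and Ddit4l stay below 0 on each scale, Strip2 stays above 0, and Ngef and Ankrd63 change sign between the circle and the triangle.

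Levels can be compared between the genes only per length, here as CPM per kb of merged exons. In control mice Arpp19 was the highest, at 171 CPM per kb, followed by Rasd2 at 127, Ngef at 121, Tmem158 at 87.1, Arpp21 at 81.4, Dclk3 at 59.8, Strip2 at 49.4, Ankrd63 at 33.6, Actn2 at 20.9 and Ddit4l at 6.34. The ranges of the 4 mice separated 5 of the 9 neighboring pairs in this order, and Rasd2 with Ngef, Tmem158 with Arpp21, Arpp21 with Dclk3 and Dclk3 with Strip2 overlapped. In deletion mice Strip2 moved up to 87.3 CPM per kb, level with Tmem158 at 87.8, while Arpp21 moved down to 40.6, below Dclk3 at 61.9. The order depends on the length used. Arpp21 has 31 annotated transcripts and 17428 bases of merged exons against 5320 bases in its longest transcript, and with the latter it was the highest of the 10 genes in control mice.

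Of the 10 genes, 4 (Arpp21, Arpp19, Tmem158 and Dclk3) lie on chromosome 9, and Dclk3 ends 575973 bases from Arpp21. These neighbors had log2 fold changes of 0.05 and -1.0. The exons of Arpp21 share 580 bases (3.33%) with the antisense gene 2900079G21Rik, whose reads cannot be told apart without strand, but that gene had a mean of 1.90 CPM in control and 2.32 CPM in deletion mice. Another antisense gene within Arpp21, 2310075C17Rik, shares 0 exon bases with it. That gene went from 3.20 to 1.47 mean CPM (log2 fold change -1.13, adjusted p = 0.00632, edgeR). Ngef shares 123 exon bases (3.15%) with Neu2, which had a log2 fold change of 0.02.

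The closest relatives of the 10 genes moved in part differently. Of 15 tested relatives, 2 were called lower (Actn1 and Arhgef15) and 1 higher (Ensa), against 3.91% and 4.87% of all tested genes. The median log2 fold change of the relatives was 0.02. These 3 calls were each lost in 7 of 8 fits that left out 1 mouse. Ddit4, which encodes the mTORC1 inhibitor REDD1, had a log2 fold change of 0.02, from 33.8 to 34.4 mean CPM, where Ddit4l fell. Ensa, which encodes endosulfine alpha, the relative of ARPP-19 with the same action on PP2A, went from 274 to 320.3 mean CPM (log2 fold change 0.23, adjusted p = 0.00566, edgeR).

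R3hdm1 (-0.41, adjusted p = 0.0403) and R3hdm2 (-0.04), RNA-binding relatives of Arpp21, did not pass edgeR's test, nor did Rasd1 (0.21, and 0.61 without control 4), the other member of the RHES pair of G proteins. By DESeq2, R3hdm1 passed (adjusted p = 0.00678). Dclk1, with -0.30 (adjusted p = 0.0257 by edgeR and 0.00356 by DESeq2), and Dclk2, with -0.04, are the kinases related to Dclk3. The actinin genes stood at -0.39 for Actn1 (adjusted p = 0.00437, edgeR), 0.61 for Actn3 and -0.05 for Actn4. The ephexin genes stood at 0.58 for Arhgef5, -0.42 for Arhgef15 (adjusted p = 0.00777, edgeR), 0.31 for Arhgef16 and 0.15 for Arhgef19. Arhgef5 and Arhgef16 were far higher in deletion 2 than in other deletion mice, and without it they stood at 0.16 and -0.29, so the sign of Arhgef16 turned.

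As a share of the summed CPM per kb of a gene and its relatives, Ddit4l went from 24.7% ± 2.66 (SD, n = 4) in control to 11.1% ± 1.08 in deletion mice, the rest being Ddit4. Arpp21 went from 87.0% ± 2.32 to 79.4% ± 1.52 of its family with R3hdm1 and R3hdm2. Both shares separated the groups, and Arpp21 remained the main member of its family. Actn2 went from 49.3% ± 2.02 to 44.1% ± 1.44 of the actinins, and Dclk3 from 53.2% ± 4.15 to 58.6% ± 1.36 of the doublecortin-like kinases. These shares and that of Arpp19 with Ensa (76.9% to 74.0%) also separated the groups, by narrow margins. The log2 fold change of Dclk3 itself was 0.05 and that of Dclk1 was -0.30. How often shares separate in other families was not computed. Shares depend on the lengths used, and no test was made of them.

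**Figure D5:**
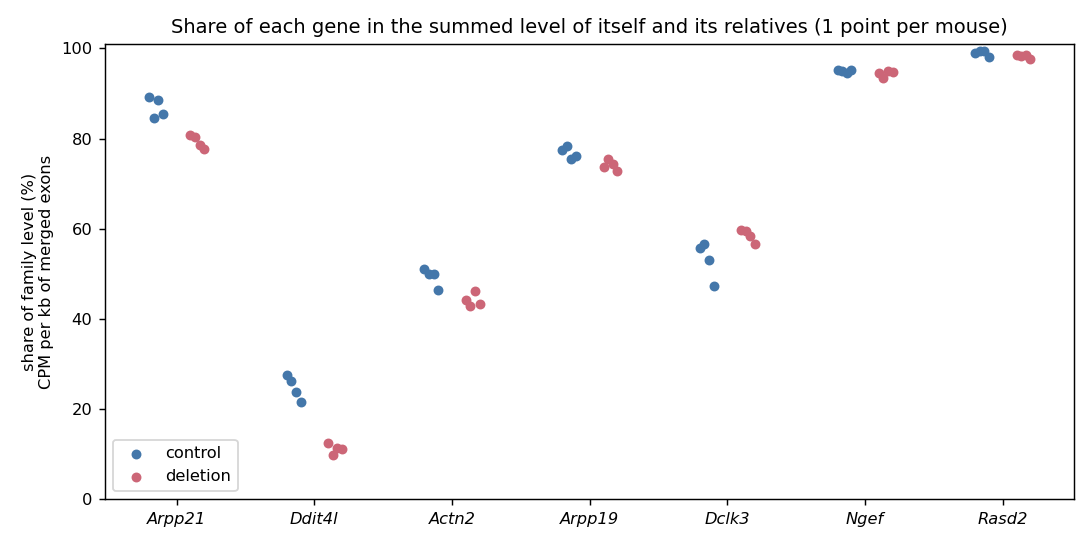
Share (%) of each gene in the summed CPM per kb of merged exons of itself and its closest relatives, with 1 point per mouse for control (blue) and deletion (red) groups. The share of Ddit4l lies near 24.7% in control and 11.1% in deletion mice, and the shares of Rasd2 and Ngef are above 90% in both groups.

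Genes that work with these effectors were counted from lists drawn up by function, with earlier results of these data known. Beside each count stand the shares of all tested genes under the same rule, 3.91% lower and 4.87% higher. Of 27 cAMP-regulated phosphoproteins, phosphatases and their regulators, 8 were called lower and 2 higher, with a median log2 fold change of -0.01. Ppp2r2a, the B55 alpha subunit of PP2A that ARPP-19 and ENSA inhibit, fell from 122 to 70.8 mean CPM (log2 fold change -0.79, adjusted p = 3.16e-05, edgeR). Ppp1ca, a catalytic subunit of PP1, the target of DARPP-32, was at -0.71, Ppp1r1b at -0.51 and Prkar2b, a regulatory subunit of protein kinase A, at -0.42, all called. The 2 called higher were Ensa and Calm3, a calmodulin gene (0.41, adjusted p = 0.00121, edgeR). Of the other PP1 catalytic genes, Ppp1cb was called at -0.23, and Ppp1cc was at 0.30 without a call. Of the other B55 genes, Ppp2r2d was called at -0.27, and Ppp2r2b (0.08) and Ppp2r2c (0.06) were not called. In fits that left out 1 mouse, 4 to 6 of this list were called lower.

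Of 23 genes of mTORC1 and its brakes, 2 were lower and 1 higher, with a median log2 fold change of 0.01. Sesn1, a sestrin that restrains mTORC1 when leucine is low, rose from 97.7 to 202 mean CPM (log2 fold change 1.05, adjusted p = 4.20e-06, edgeR), opposite to Ddit4l. Akt2 (-0.46), a kinase gene that acts upstream of mTORC1, was among those called lower. Of 20 genes of STRIPAK beside Strip2, 4 were lower and 0 higher at the threshold by edgeR, with a median of -0.01. At an unadjusted p under 0.05, 7 were lower and 3 higher, where 14.5% and 15.1% of all tested genes were. The 4 were Stk26, a GCKIII kinase (-0.87, adjusted p = 5.77e-05, edgeR), Cttnbp2, a cortactin-binding protein of spines (-0.77, adjusted p = 4.38e-05, edgeR), Slmap (-0.43) and Sike1 (-0.39), and each was called in every fit that left out 1 mouse. Apart from Strip2, 0 STRIPAK genes were thus called higher by edgeR with all mice, but 2 of the 20 were by DESeq2, 1 without a filter on low counts and 1 without control 4.

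Of 21 partners of RHES, 1 was lower (Bcl2, an inhibitor of apoptosis, -0.41, adjusted p = 0.00425, edgeR, called in 4 of 8 fits that left out 1 mouse) and 0 higher, with a median of 0.05. At an unadjusted p under 0.05 by edgeR, 4 partners were lower and 6 higher, the latter between 2 and 8 without 1 mouse. Of all tested genes, 14.5% were lower and 15.1% higher at that p. Of 7 tested genes of the doublecortin family, 0 were called by edgeR, with 3 lower and 0 higher at an unadjusted p under 0.05 and a median of -0.25. By DESeq2 1 of them was lower, and by limma-voom 0. Of 26 tested actinins and spine partners of actinin-2, 3 were lower and 1 higher, with a median of -0.01, among them Grin2b (-0.47), an NMDA receptor subunit, and Pdlim7 (0.32), a PDZ and LIM protein that binds actinin. Of 27 genes of ephexin and EphA signaling, 2 were lower and 4 higher, with a median of 0.07. Epha10, an EphA receptor without kinase activity, went from 9.55 to 20.7 mean CPM (log2 fold change 1.11, adjusted p = 1.02e-04, edgeR), and Chn2, a Rac GTPase activating protein, was at 0.53. In fits without 1 mouse, the actinin list had 0 to 1 calls in each direction and the EphA list 0 to 1 lower and 1 to 3 higher calls.

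Of 40 other striatum-enriched genes, 20 were called lower and 1 higher (Rgs4, a brake on G protein signaling, 0.41), with a median log2 fold change of -0.36. Coch (-1.42), Ptpn5 (-0.95), which encodes the striatal phosphatase STEP, Gpr6 (-0.73) and Drd2 (-0.60) had the smallest p among them. Rgs4 passed in only 2 of 8 fits without 1 mouse. In fits that left out 1 mouse, 14 to 21 of this list were called lower. The list shares genes with the MSN markers, Drd2 and Gpr6 among them, so the counts of these 2 lists are not separate. With all mice, the share called lower was the same as among the 10 effector genes, 5 of 10, whose median was -0.29.

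For each called gene, the tested gene with the nearest pattern over the 8 libraries was named by the smallest root mean square difference of mean-centered log2 CPM. Searched were the 16316 genes whose mean reached 1 CPM. The points share their libraries and groups, so genes with the same fold change come out as near. Ryr1, the ryanodine receptor of skeletal muscle type, was nearest to Ddit4l (0.0855). Tbc1d16, a Rab GTPase activating protein, was nearest to Rasd2 (0.0516), and Asic4, of the acid-sensing channel family, to Actn2 (0.0515). Anapc16, a subunit of the anaphase-promoting complex, was nearest to Ngef (0.0384), the noncoding RNA Gm49700 to Arpp21 (0.0894), and Begain, a protein of the postsynaptic density, to Strip2 (0.093).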

How the data were processed

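Ribosomal RNA-depleted libraries were sequenced as paired-end reads. Per the labels and the study's methods, the authors trimmed reads with Trim Galore 0.6.4, aligned them to GRCm38.p6 with STAR 2.7.2b and made the deposited counts per gene with featureCounts, with strand and multimapping settings not given in the sources used here. Deposited log2 values come from the rlog function of DESeq2, run by the authors, and these were used for 1 alternative.

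Counts were tested here with edgeR 4.0.16 in R 4.3.3 (filterByExpr with a minimum count of 10 and a total of 15, TMM, quasi-likelihood F-test with group alone, adjustment over 22173 genes, threshold 0.01). Log2 CPM used a prior count of 2. Groups were compared for single values by whether they overlapped, which in an exact two-sided permutation test over 70 assignments corresponds to p = 0.0286, the smallest possible. Mice of a group were taken as separate animals, and pairs of libraries differed by 13.1 to 64.5 times their counting variance. Depth is given with the results, and the precision of a value is that of 4 mice per group. The fit was tested on simulated data. Alternatives were DESeq2 1.42.0, limma-voom and limma on the rlog values (limma 3.58.1), 2 other scalings, 2 other filters, a robust fit, a replicate block, thinning and each mouse left out. Coordinates and lengths are from GENCODE M21, and sequences from RefSeq. Named are the 10 genes, Bcl11b, the closest relatives, up to 4 called genes of each list with the smallest p, and the nearest gene by pattern. Rgs4, Mir128-1, Mir128-2 and the overlapping genes were added after their values were seen. So were Tac1, Pdyn, Isl1, Calm3, Ppp1cb, Ppp1cc, Ppp2r2b, Ppp2r2c and Ppp2r2d. The family shares were also chosen after the data were seen. The members and lists were chosen with earlier results of these data known. Values of a few listed genes are not reported here.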

Additional observations from a re-analysis of the deposited data

Results flagged for a closer look

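Among the 52 groups of 4 mice examined for the 10 genes, Bcl11b and the closest relatives, 7 held a mouse whose distance to the nearest other mouse exceeded Dixon's critical value, where chance flags about 1 in 20. In deletion 2, Ddit4l was at 6.07 CPM against 7.37 to 7.62 in the other deletion mice, Ankrd63 was at 124 CPM against 142 to 143, and Arpp19 was at 911 CPM against 820 to 829. Also in deletion 2, Arhgef5 was at 6.46 CPM against 2.59 to 2.95 and Arhgef16 at 1.62 CPM against 0.459 to 0.605. This mouse had the highest sum of ependymal and choroid plexus markers, 9793 CPM, and its part in these values was not tested. In control 4, Actn2 was at 66.2 CPM against 82.0 to 85.2 in the other control mice. In deletion 4, Rasd1 was at 2.88 CPM against 2.03 to 2.07.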

How the results depend on the processing

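Arpp21, Ddit4l, Rasd2, Actn2 and Strip2 kept their direction and their call in all 18 alternatives, 10 settings and 8 fits without 1 mouse. Between 4 and 6 genes were called lower in fits without 1 mouse, 6 by DESeq2 and 4 with the replicate block. Ngef was not called in 7 of the 8 fits nor with the block (adjusted p = 0.0163, edgeR), and Ankrd63 was called only by DESeq2 and without control 4. The sign of genes near 0 changed: Arpp19 was at 1.07e-04 by DESeq2, 3.72e-05 by limma-voom, 7.98e-04 on the rlog values, 0.00784 without a filter and 1.80e-04 with the block, and Tmem158 was at -2.63e-04 with library sizes alone. In fits without 1 mouse, log2 fold changes ran from -0.0369 to 0.0368 for Arpp19, from -0.0302 to 0.0601 for Tmem158 and from -0.0209 to 0.142 for Dclk3. Of all genes, 1947 were called by edgeR, 3199 by DESeq2, 1165 with the block and 1102 to 2066 without 1 mouse. Of the pathway lists, 48 genes were called, 27 with the block and 27 to 43 without 1 mouse. The causes were not tested. The replicate numbers gave no sign of pairing the mice. Deviations of same-numbered mice correlated at 0.03, -0.23, 0.03 and 0.06, and 1 of 8 mice correlated best with its own number. Other pairs ran from -0.22 to 0.24, and these values cannot show whether mice shared a litter or a preparation. With the block the log2 fold change of Ngef was -0.328, against -0.331 without it, so its call was lost at nearly the same size. With 4 mice per group, 1 sex, 1 age and no group with Cre alone, effects of Cre and of the deletion cannot be told apart.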
